A study of Homo sapiens with 48 samples.

Results

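The transcripts described here are those whose loss after a block of transcription responded to 6 days of STM2457 in Kelly cells but not in NGP cells, in NGP but not in Kelly, or in opposite directions. They were taken from the libraries titled with 6 days of treatment and 0 or 6 h of actinomycin D, which are 16 of the 48 libraries of the study. Both are human neuroblastoma lines, labelled as MYCN-amplified and wild type, and each was treated with 8 µM STM2457, an inhibitor of the RNA methyltransferase METTL3, or with its solvent DMSO. Actinomycin D, which stops RNA synthesis, was then added at 10 µg/ml. The 8 groups of 2 libraries were Kelly or NGP, with DMSO or STM2457, each at 0 h and at 6 h of actinomycin D. The labels do not say that the replicates were separate cultures, so p-values measure only the spread between these libraries, which may be technical. Only these lines were used, so a difference between them cannot be told apart from any other property in which they differ.

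METTL3, with METTL14 and WTAP, places the N6-methyladenosine (m6A) mark on messenger RNA, and reader proteins of the YTHDF and YTHDC families bind it. In many cell types m6A shortens the life of the transcripts that carry it, and METTL3 inhibition is used to ask which transcripts are affected. After actinomycin D the fall of a transcript reports its decay, as long as no new RNA is made and the starting pool was at a steady state.

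The decay difference of a gene is its log2 change from 0 to 6 h in STM2457 minus the same change in DMSO. The line difference is the decay difference in NGP minus that in Kelly, so a positive value means that loss was slowed more, or sped less, by STM2457 in NGP. Values are relative to the typical gene of the same libraries, and "slower" and "faster" are used in that sense. A gene that rose in both treatments counts as faster where it rose less in STM2457, and as slower where it rose more. Each line difference also equals the line difference of the STM2457 effect at 6 h minus that at 0 h, and these effects are built from the same libraries as the decay difference. CPM is the count scaled to a common library size with the trimmed mean of M-values (TMM), log2 values are given ± SE, and adjusted p-values come from the quasi-likelihood F-test of edgeR, corrected over 17343 genes by the Benjamini-Hochberg method. A gene is called where its adjusted p is under 0.05.

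The genes that differed included 3 families with known promoter elements and 1 with a known end of its messenger RNA, and an example of each is shown because the results below are grouped by these families. The promoter windows are from RefSeq on GRCh38.p14 and run from 250 bases before to 50 bases after the annotated start. HSPA5, the endoplasmic reticulum (ER) chaperone BiP, is shown at chr9:125241294-125241593 on the minus strand with the ER stress element (CCAAT, 9 unspecified bases, CCACG) in capitals. HSPA8, a cytosolic chaperone of the HSP70 family, is shown at chr11:123062087-123062386 on the minus strand, with both matches of the heat shock element in capitals (GAA, TTC and GAA, each pair separated by 2 unspecified bases; the second match is on the other strand). ASNS, asparagine synthetase, is shown at chr7:97872359-97872658 on the minus strand with the CEBP-ATF element TGATGNAA in capitals.
HSPA5: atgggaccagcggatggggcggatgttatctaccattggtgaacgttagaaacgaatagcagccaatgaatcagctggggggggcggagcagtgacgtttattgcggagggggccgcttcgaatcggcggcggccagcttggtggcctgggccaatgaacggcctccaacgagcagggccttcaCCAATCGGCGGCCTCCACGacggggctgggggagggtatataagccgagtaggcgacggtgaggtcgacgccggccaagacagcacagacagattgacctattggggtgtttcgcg
HSPA8: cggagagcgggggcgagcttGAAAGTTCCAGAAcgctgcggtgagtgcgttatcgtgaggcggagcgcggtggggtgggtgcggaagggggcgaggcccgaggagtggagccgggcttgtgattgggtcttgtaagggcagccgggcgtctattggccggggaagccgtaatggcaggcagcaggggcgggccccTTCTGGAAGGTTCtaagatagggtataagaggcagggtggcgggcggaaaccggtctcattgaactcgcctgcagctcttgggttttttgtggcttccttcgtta
ASNS: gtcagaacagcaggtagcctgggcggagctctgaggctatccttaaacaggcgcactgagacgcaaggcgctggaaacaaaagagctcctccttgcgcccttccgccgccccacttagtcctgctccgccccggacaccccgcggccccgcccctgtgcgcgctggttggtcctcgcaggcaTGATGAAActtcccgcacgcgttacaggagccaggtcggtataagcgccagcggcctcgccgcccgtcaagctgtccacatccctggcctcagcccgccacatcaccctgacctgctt

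Searched on both strands, the ER stress element was found in 27 of 35116 promoter windows (0.0769%), the heat shock element in 172 (0.490%) and the CEBP-ATF element in 1270 (3.62%). Of the ER stress chaperone list, 7 of 19 genes with a window held the ER stress element, and HSPA5, CALR, HSP90B1 and PDIA6 were those among them whose line difference passed the test. The heat shock element was in windows of 5 of 19 heat shock chaperone genes, of which DNAJA1, HSP90AA1, HSP90AB1 and HSPA8 passed. In the amino acid response list 11 of 30 genes with a window held the CEBP-ATF element, of which 9 passed. With or without the element, 6, 6 and 20 genes with a window passed in these lists. Counted by gene, the elements were in windows of 18, 74 and 463 of 13514 tested genes. A match is a description of these letters and not of a bound site.

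Replication-dependent histone messenger RNAs end in a stem-loop in place of a poly(A) tail, so a poly(A) library holds only the part of them that was polyadenylated. The 16 letters of the stem-loop shown in capitals, with any base at the place where H2AC20 differs, were in the GENCODE 44 transcripts of 45 of 64 histone genes tested, and in 46 of 16688 tested genes with such a transcript (0.276%). Of 12 histone genes with a called line difference 9 held them, a share near the 45 of 64, and H1-10, H2AC11 and H4C5 did not. Only this spelling was searched, so a gene without these letters may still end in a stem-loop. The letters are shown with 5 flanking bases on each side. H1-3 is at chr6:26234212-26234237 (minus strand), H1-4 at chr6:26157090-26157115 (plus strand) and H2AC20 at chr1:149887386-149887411 (plus strand). The files' own models of H1-3 and H2AC20 end before these bases.
H1-3: taaacGGCTCTTTTCAGAGCCaccca
H1-4: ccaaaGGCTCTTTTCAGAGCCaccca
H2AC20: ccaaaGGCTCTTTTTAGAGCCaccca

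The 16 libraries held 11139550 to 21942238 fragments in genes (median 15653484) and counts for 13801 to 16043 genes. The ERCC spike-ins, synthetic RNAs counted beside the genes, took 0.306 to 0.364% of fragments in Kelly at 0 h. In NGP at 0 h they took 0.325 to 0.336%. At 6 h they took 0.487 to 0.671% in Kelly and 0.461 to 0.594% in NGP. The 6 h share was 0.671 and 0.6497% in Kelly DMSO and 0.4997 and 0.487% in Kelly STM2457. In NGP it was 0.589 and 0.594% in DMSO and 0.461 and 0.462% in STM2457. The share thus rose more in DMSO than in STM2457 in both lines. A shift shared by all genes is not seen in the TMM-scaled values. The cause was not tested. The summed level of 10 neuroblastoma markers was 10072 to 12951 CPM in Kelly and 2554 to 4126 CPM in NGP, with 10 and 9 of them above a mean of 1 CPM, and that of 10 mesenchymal markers was 231 to 312 and 431 to 603 CPM; no marker was at 0 in all libraries of a line. METTL3 (chr14:21498133-21511342, with 6.62% of its exon bases shared with TOX4) had 47.6 to 64.4 CPM in the Kelly libraries and 46.0 to 67.3 CPM in the NGP libraries, and a line difference of 0.33 ± 0.34 (adjusted p = 1). STM2457 acts on the protein, so this level does not check the treatment labels.

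The line difference passed the test for 174 of 17343 genes (1.00%), of which 98 were higher (0.565%) and 76 lower (0.438%) in NGP. The decay difference alone passed for 84 genes in Kelly (0.484%), 37 slower and 47 faster, and for 277 genes in NGP (1.60%), 143 slower and 134 faster. Of the 174 genes, 118 had a called decay difference in NGP only (68 slower, 50 faster), 33 in Kelly only (18 slower, 15 faster), 7 in both lines with opposite signs and 16 in neither line. Another 7 genes were called in both lines with the same sign, and none of them had a called line difference. At least 5 CPM in all 4 groups at 0 h were reached by 105, 19, 7 and 14 of these genes. The others include genes such as DNAH6 and GALNT17 with groups at or near 0 counts, for which no fold is given. The 50 genes faster in NGP only had median NGP changes over 6 h of 0.95 in DMSO and 0.29 in STM2457, a smaller rise. A call in 1 line only does not mean no change in the other. Estimates had opposite signs in the lines for 144 of the 174 genes, against 8865 of all 17343. That held for 28 of the 33 called in Kelly only. Picking genes by the line difference favours opposite signs.

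Without Kelly DMSO 0 h replicate 1, Kelly DMSO 0 h replicate 2 or Kelly STM2457 0 h replicate 1 the Kelly decay difference was called for 41, 44 and 37 genes. The Kelly-only class then held 20, 18 and 18 genes, without Kelly STM2457 0 h replicate 2 it held 18, and without Kelly STM2457 6 h replicate 2 it held 50. The opposite class held 2 genes without Kelly DMSO 0 h replicate 1, 4 without its replicate 2, 3 without Kelly DMSO 6 h replicate 1, 3 without either Kelly STM2457 0 h replicate and 4 without NGP DMSO 0 h replicate 2. ATF4 was in the opposite class in all 16 refits that each left out 1 library, H2AC11 in 15, HSPA5 in 11, MT-ND1 in 10, H4C5 in 7, H1-3 in 5 and PDIA4 in 4.

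**Figure D1:**
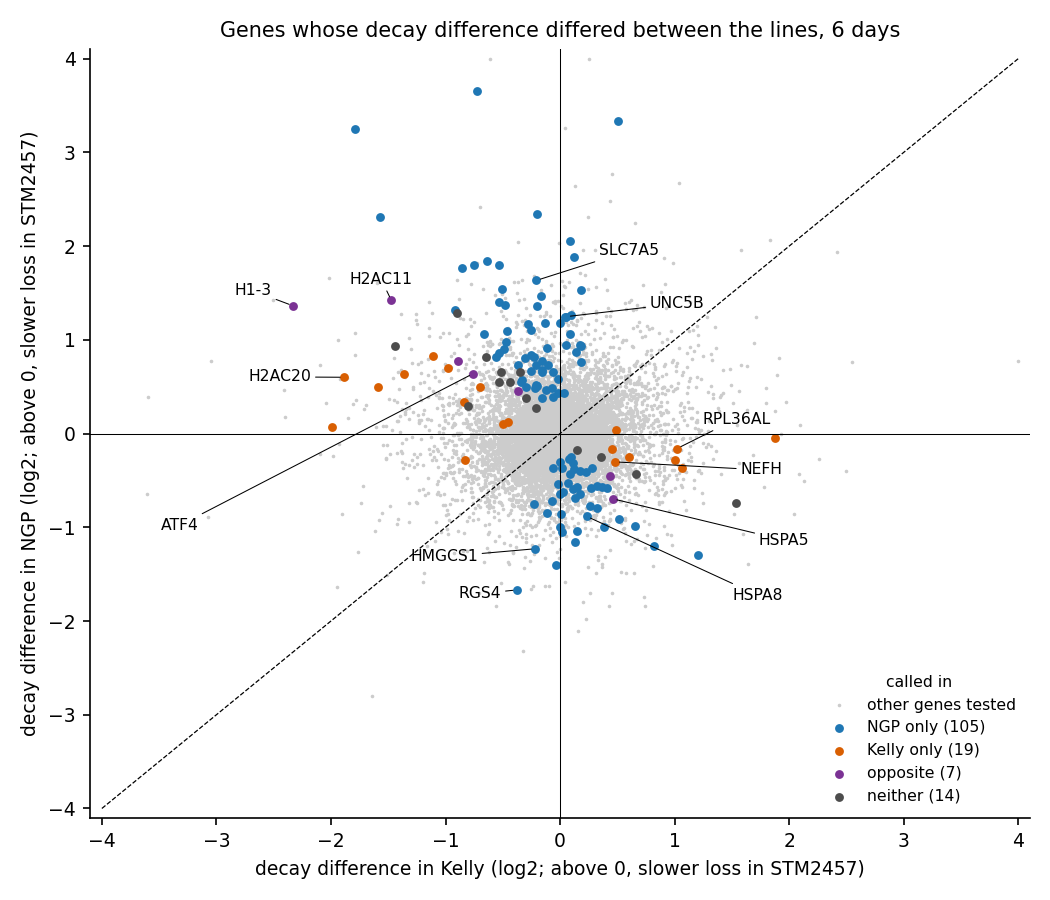
Decay difference (log2 of the 6 h over the 0 h level, STM2457 minus DMSO) in Kelly on the x axis and in NGP on the y axis, for genes with at least 5 CPM in all 4 groups at 0 h; the dashed line marks equal values. Coloured points are genes with a called line difference, by the line in which the decay difference itself was called (105 in NGP only, 19 in Kelly only, 7 opposite, 14 in neither); 3 genes beyond 4 log2 units are drawn at the edge.

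The largest group was the amino acid response, the genes that the transcription factor ATF4 activates when amino acids are short or the eIF2 kinases are active. Of 36 listed genes 35 were tested, and NUPR1, with at most 22 counts in a library, was not; 30 had at least 5 CPM in all 4 groups at 0 h. The line difference was higher in NGP for 24 of the 35 and lower for 0, against 0.565% and 0.438% of all genes, with a list median of 1.42 against -0.05 over all genes. Their loss was slower under STM2457 in NGP for 28 of 35 (0.825% of all genes) and faster for 0, while in Kelly it was faster for 1 and slower for 0. The median decay difference was 1.18 in NGP and -0.21 in Kelly. SESN2 was the 1 tested member with an estimate below 0, at -2.91 ± 2.09.

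ATF4 itself (chr22:39519695-39522685) had opposite decay differences in the lines. In NGP the DMSO libraries held 493 and 525 CPM at 0 h, 154 and 130 at 3 h and 235 and 258 at 6 h, and the STM2457 libraries 241 and 231, 196 and 193, and 192 and 164 CPM. In Kelly the DMSO libraries held 391 and 353, 350 and 331, and 366 and 352 CPM, and the STM2457 libraries 305 and 302, 213 and 232, and 190 and 157 CPM. At 0 and at 6 h all STM2457 libraries lay below all DMSO libraries of their line, with the wider gap at 0 h in NGP and at 6 h in Kelly. The decay difference was 0.64 ± 0.12 in NGP (adjusted p = 0.000447) and -0.76 ± 0.12 in Kelly (adjusted p = 7.19e-05), and the line difference was 1.40 ± 0.17 (adjusted p = 5.07e-08). It was also the 1 gene of 17343 (0.00577%) whose line difference was called over 0 to 3 h, at 1.88.

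GARS1 (chr7:30594838-30634033) encodes glycyl-tRNA synthetase, which charges glycine onto its transfer RNA. NGP DMSO libraries held 547 and 587 CPM at 0 h, 604 and 629 at 3 h and 245 and 267 at 6 h, and NGP STM2457 libraries 225 and 219, 258 and 227, and 215 and 241. Kelly libraries stayed between 305 and 434 CPM at every time in both treatments. The NGP treatments did not overlap at 0 or 3 h and stood close at 6 h (the lower DMSO library at 245, the higher STM2457 library at 241). The decay difference was 1.18 ± 0.10 in NGP (adjusted p = 1.13e-13) and -0.13 ± 0.10 in Kelly (adjusted p = 0.813), and the line difference 1.32 ± 0.15 (adjusted p = 2.11e-09). Other tRNA synthetases of the list with a called line difference were MARS1, AARS1, EPRS1 and SARS1, at 1.02, 0.75, 0.45 and 0.58, of which AARS1 lost the call in 3 of 16 refits, EPRS1 in 9 and SARS1 in 12; WARS1 was at 1.00 ± 0.37 and IARS1 at 0.34 ± 0.16 and neither passed.

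SLC7A5 (chr16:87830023-87869507), the LAT1 transporter of large neutral amino acids, held 453 and 482 CPM in NGP DMSO at 0 h, 509 and 499 at 3 h and 210 and 195 at 6 h. In NGP STM2457 it held 131 and 115, 158 and 132, and 156 and 175 CPM, below DMSO at each time. Its line difference was 1.84 ± 0.21 (adjusted p = 5.63e-09), made of 1.63 ± 0.15 in NGP and -0.21 ± 0.15 in Kelly. ASNS (chr7:97851677-97872542), the gene of the promoter shown above, held 289 and 270, 364 and 342, and 144 and 136 CPM in NGP DMSO and 79.7 and 72.2, 90.7 and 72.9, and 102 and 93.5 CPM in NGP STM2457. The line difference of ASNS was 1.56 ± 0.21 (adjusted p = 7.22e-07), with 1.36 ± 0.15 in NGP and -0.20 ± 0.15 in Kelly. For both genes the DMSO level in NGP was held to 3 h and fell between 3 and 6 h, while the STM2457 level started low and did not fall. Accordingly the line difference over 0 to 3 h was 0.02 for SLC7A5, -0.09 for ASNS and 0.02 for GARS1.

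**Figure D2:**
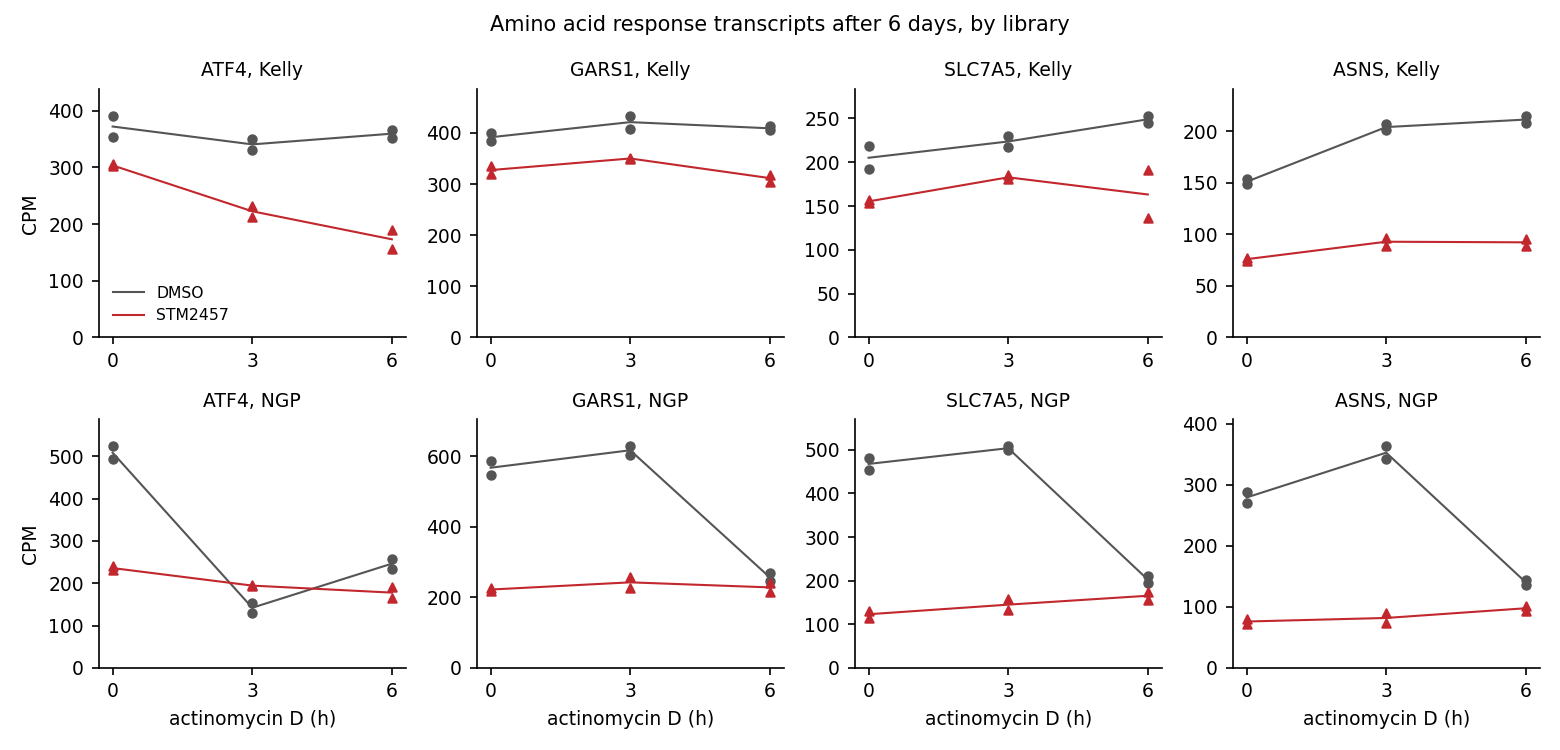
CPM of ATF4, GARS1, SLC7A5 and ASNS by hours of actinomycin D after 6 days of DMSO (grey circles) or STM2457 (red triangles), with Kelly above and NGP below; each point is 1 library and lines join the means of 2. In NGP the DMSO and STM2457 levels of GARS1 lie apart at 0 and 3 h and come within 245 to 267 and 215 to 241 CPM at 6 h.

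Serine synthesis and one-carbon genes of the list moved likewise: the line difference was 1.63 ± 0.24 for PSAT1, 0.94 ± 0.16 for PHGDH and 0.93 ± 0.18 for MTHFD2, all called. SHMT2 was at 0.68 ± 0.20 and did not pass (adjusted p = 0.0732). Amino acid transporters besides SLC7A5 were called at 3.14 for SLC7A11 (under 5 CPM in at least 1 group at 0 h), 1.86 for SLC3A2, 1.10 for SLC1A5 and 0.84 for SLC7A1. ATF5, a transcription factor related to ATF4, held 148 and 195 CPM in NGP DMSO at 0 h and 19.9 and 30.6 at 6 h, against 6.77 and 3.36 at 0 h and 6.20 and 9.79 at 6 h in NGP STM2457. Its Kelly libraries held 2.62 to 11.2 CPM throughout, and its line difference was 4.15 ± 0.76 (adjusted p = 0.000306). ALDH1L2 (chr12:105019784-105107643), a mitochondrial folate enzyme, was called for the line difference at 1.46 ± 0.34 (adjusted p = 0.0114) although neither line alone passed, at 0.81 ± 0.24 in NGP and -0.65 ± 0.25 in Kelly.

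At 0 h, before actinomycin D, 33 of the 35 genes were lower in STM2457 than in DMSO in NGP (2.24% of all genes were) and 13 in Kelly (1.46% of all genes), with medians of -1.52 and -0.37. At 6 h, 13 were lower and 1 higher in NGP (2.78% of all genes in each direction) and 17 lower and 1 higher in Kelly (4.27% and 5.17%), with medians of -0.29 and -0.58. These effects share their libraries with the decay difference, so they show how each difference is composed and are no separate support for it. Whether transcripts present at 0 h in NGP DMSO were at a steady state was not tested. The list was called for 18 to 26 genes under the other settings and for 18 to 23 when 1 library was left out, with 0 called lower in any of them.

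EIF1 and ARHGEF2, outside the list, were the other genes with the smallest p among those slower in NGP only. EIF1 (chr17:41688885-41692668), an initiation factor that guards start codon choice, held 384 and 403 CPM at 0 h and 328 and 340 at 6 h in NGP DMSO, and 191 and 186 at 0 h and 273 and 284 at 6 h in NGP STM2457. Its line difference was 1.11 ± 0.14 (adjusted p = 1.27e-07), with 0.80 in NGP and -0.30 in Kelly. ARHGEF2 (chr1:155946851-156007070), a microtubule-bound activator of RhoA, held 331 and 360 CPM at 0 h and 134 and 141 at 6 h in NGP DMSO, and 221 and 227 and 196 and 184 CPM in NGP STM2457. For ARHGEF2 the order of the treatments was reversed between 0 and 6 h without overlap at either time, and the line difference was 1.55 ± 0.21 (adjusted p = 4.67e-07). UNC5B (chr10:71212570-71302864), a netrin receptor, had 212 and 265 CPM at 0 h and 119 and 118 at 6 h in NGP DMSO against 70.8 and 83.7 and 96.1 and 85.5 CPM in NGP STM2457, and a line difference of 1.19 ± 0.20 (adjusted p = 5.12e-05).

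Among chaperones, called genes were mostly lower. Of the 20 tested ER stress chaperone genes, 5 had a lower line difference (HSPA5, PDIA4, CALR, HSP90B1 and PDIA6) and 1 a higher one (HERPUD1), and of 20 tested heat shock genes (CRYAB of 21 was too low to test) 5 were lower (HSP90AA1, HSPA8, HSPA1B, DNAJA1 and HSP90AB1) and 1 higher (HSPA9), against 0.438% lower and 0.565% higher of all genes. The list medians were -0.06 and -0.20. The estimates of the ER list ran from -1.16 to 2.23, with 10 above and 10 below 0. Those of the heat shock list ran from -3.06 to 0.40, with 3 above and 17 below 0. The PDIA6 call was lost in 4 of 16 refits and the HSPA9 call in 11. With scaling to long-lived transcripts 3 heat shock genes were lower. The ER median turned positive, at up to 0.06, after removing a length trend and with scaling to long-lived transcripts.

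HSPA5 (chr9:125234853-125241343) held 161 and 155 CPM at 0 h and 164 and 185 at 6 h in NGP DMSO, and 264 and 267 at 0 h and 173 and 189 at 6 h in NGP STM2457. In Kelly it held 407 and 421 and then 324 and 369 CPM in DMSO, and 387 and 360 and then 404 and 457 CPM in STM2457. The treatments were apart at 0 h in both lines, with STM2457 higher in NGP and lower in Kelly, and at 6 h they overlapped in NGP and STM2457 was higher in Kelly. The decay difference was -0.70 ± 0.11 in NGP (adjusted p = 8.22e-06) and 0.46 ± 0.11 in Kelly (adjusted p = 0.0194), and the line difference -1.16 ± 0.15 (adjusted p = 2.74e-07). PDIA4 (chr7:149003062-149028662), a disulfide isomerase of the ER, was opposite in the same sense, at -0.46 ± 0.11 in NGP and 0.44 ± 0.11 in Kelly, and its line difference was -0.89 ± 0.16 (adjusted p = 0.000169). CALR (chr19:12938578-12944489), a calcium-binding chaperone of glycoproteins, and HSP90B1 (chr12:103930107-103953645), the ER member of the HSP90 family, were faster in NGP only, with line differences of -0.85 ± 0.13 and -0.72 ± 0.12 (adjusted p = 3.52e-06 and 3.39e-05). HSP90B1 shares 11.6% of its exon bases with C12orf73, and the counting is not stated to use strand.

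HSPA8 (chr11:123057489-123063230) held 484 and 454 CPM at 0 h and 999 and 896 at 6 h in NGP DMSO, and 941 and 946 and then 1054 and 1012 CPM in NGP STM2457. In Kelly it held 904 and 879 and then 935 and 985 CPM in DMSO, and 1014 and 1044 and then 1244 and 1359 CPM in STM2457. STM2457 libraries were above DMSO libraries at both times in both lines, by the widest margin in NGP at 0 h. The line difference was -1.12 ± 0.10 (adjusted p = 1.85e-12), with -0.88 ± 0.07 in NGP (adjusted p = 1.34e-14) and 0.23 ± 0.07 in Kelly (adjusted p = 0.163). HSP90AA1 (chr14:102080738-102139699), the inducible cytosolic HSP90, rose relative to the typical gene from 1318 and 1283 to 3854 and 3933 CPM in NGP DMSO and from 2214 and 2150 to 4113 and 4005 CPM in NGP STM2457. For HSP90AA1 the line difference was -0.81 ± 0.07 (adjusted p = 1.85e-12), with 3.75% of its exon bases shared with another gene. HSPA1B (chr6:31827738-31830254), an inducible HSP70 with a near-identical neighbour copy that makes its count uncertain, had a line difference of -2.02 ± 0.41 (adjusted p = 0.00136).

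Of 24 tested cholesterol synthesis genes, 4 had a lower line difference (0.438% of all genes) and 0 a higher one, with a list median of -0.73. Among the 4 were HMGCS1, FDFT1 and SQLE (lost in 7 of 16 refits). Under STM2457, 9 were faster in NGP (0.773% of all genes) against 1 in Kelly (0.271%). The median change of the list in NGP was 0.50 in DMSO and 0.07 in STM2457, a smaller rise. HMGCS1 (chr5:43287470-43313512), the cytosolic HMG-CoA synthase, held 90.4 and 83.1 CPM at 0 h and 284 and 273 at 6 h in NGP DMSO, and 215 and 189 and then 282 and 271 CPM in NGP STM2457. In Kelly HMGCS1 held 99.0 and 102 and then 148 and 111 CPM in DMSO, and 171 and 181 and then 183 and 207 CPM in STM2457. STM2457 was thus higher at 0 h in both lines, and at 6 h it stayed higher in Kelly while the treatments overlapped in NGP. The line difference was -1.01 ± 0.20 (adjusted p = 0.00112), with -1.23 ± 0.14 in NGP and -0.22 ± 0.14 in Kelly. FDFT1, squalene synthase, was at -0.82 ± 0.19 (adjusted p = 0.0121), a call that was lost without Kelly STM2457 0 h replicate 1 (-0.76) or 6 h replicate 1 (-0.72). Without Kelly STM2457 0 h replicate 1, and with scaling to long-lived transcripts, 2 genes of the list were called.

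**Figure D3:**
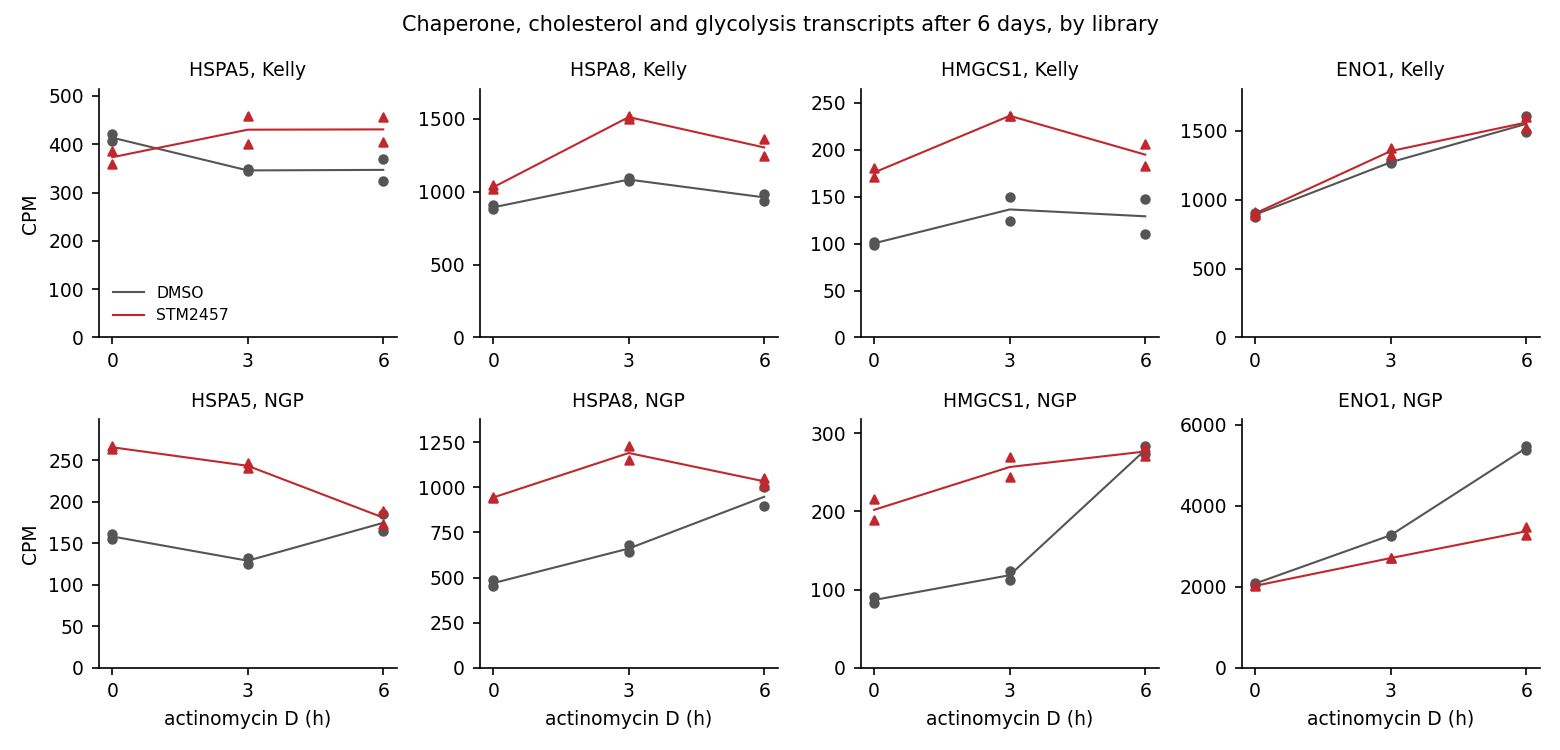
CPM of HSPA5, HSPA8, HMGCS1 and ENO1 by hours of actinomycin D after 6 days of DMSO (grey circles) or STM2457 (red triangles), Kelly above and NGP below; each point is 1 library and lines join the means of 2. In NGP the treatments are apart at 0 h and close at 6 h for HSPA5, HSPA8 and HMGCS1, and close at 0 h and apart at 6 h for ENO1.

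Of 24 tested genes of the glycolysis and hypoxia list (VEGFA was not analysed here) 5 were lower (ENO1, LDHA, TPI1, BNIP3 and PKM; 0.438% of all genes) and 0 higher (0.565%), with a list median of -0.36. ENO1 (chr1:8861000-8879190), enolase, held 2105 and 2055 CPM at 0 h and 5377 and 5476 at 6 h in NGP DMSO, and 2033 and 2015 and then 3466 and 3272 CPM in NGP STM2457. In Kelly both treatments held 877 to 909 CPM at 0 h and 1488 to 1608 at 6 h. The NGP treatments stood close at 0 h and far apart at 6 h, and the Kelly treatments overlapped at both times. The line difference was -0.64 ± 0.08 (adjusted p = 2.58e-07), with -0.65 ± 0.06 in NGP and -0.00 ± 0.06 in Kelly.

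LDHA (chr11:18394560-18408425), lactate dehydrogenase A, held 270 and 271 and then 756 and 638 CPM in NGP DMSO, and 354 and 341 and then 435 and 433 CPM in NGP STM2457, with a line difference of -1.06 ± 0.15 (adjusted p = 9.76e-07). Here the order of the treatments in NGP was reversed between 0 and 6 h. TPI1 (chr12:6867119-6870948), triosephosphate isomerase, was at -0.65 ± 0.11 (adjusted p = 4.28e-05). The median STM2457 effect of this list in NGP was 0.06 at 0 h and -0.53 at 6 h, and in Kelly -0.18 and -0.21. The list was called for 3 genes without Kelly DMSO 6 h replicate 1, NGP STM2457 0 h replicate 2 or NGP STM2457 6 h replicate 1, and for 9 with ERCC scaling.

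RGS4 (chr1:163068775-163076802), a brake on G protein signalling, was lost faster under STM2457 in NGP only. In NGP it held 65.3 and 64.4 CPM at 0 h and 85.4 and 77.2 at 6 h in DMSO, and 76.7 and 83.2 and then 37.4 and 24.9 CPM in STM2457. In Kelly it held 898 and 850 and then 413 and 415 CPM in DMSO, and 740 and 752 and then 288 and 256 CPM in STM2457. RGS4 thus fell in both treatments in Kelly, and in NGP in STM2457 alone. Its decay difference was -1.67 ± 0.14 in NGP (adjusted p = 1.46e-14) and -0.38 ± 0.13 in Kelly (adjusted p = 0.239), and the line difference -1.29 ± 0.19 (adjusted p = 2.91e-06). SLIT3 (chr5:168661733-169301129), a repulsive axon guidance ligand, was higher in STM2457 at 0 h in both lines, and its line difference was -0.86 ± 0.14 (adjusted p = 2.58e-05), with -0.85 ± 0.10 in NGP and 0.00 ± 0.10 in Kelly.

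**Figure D4:**
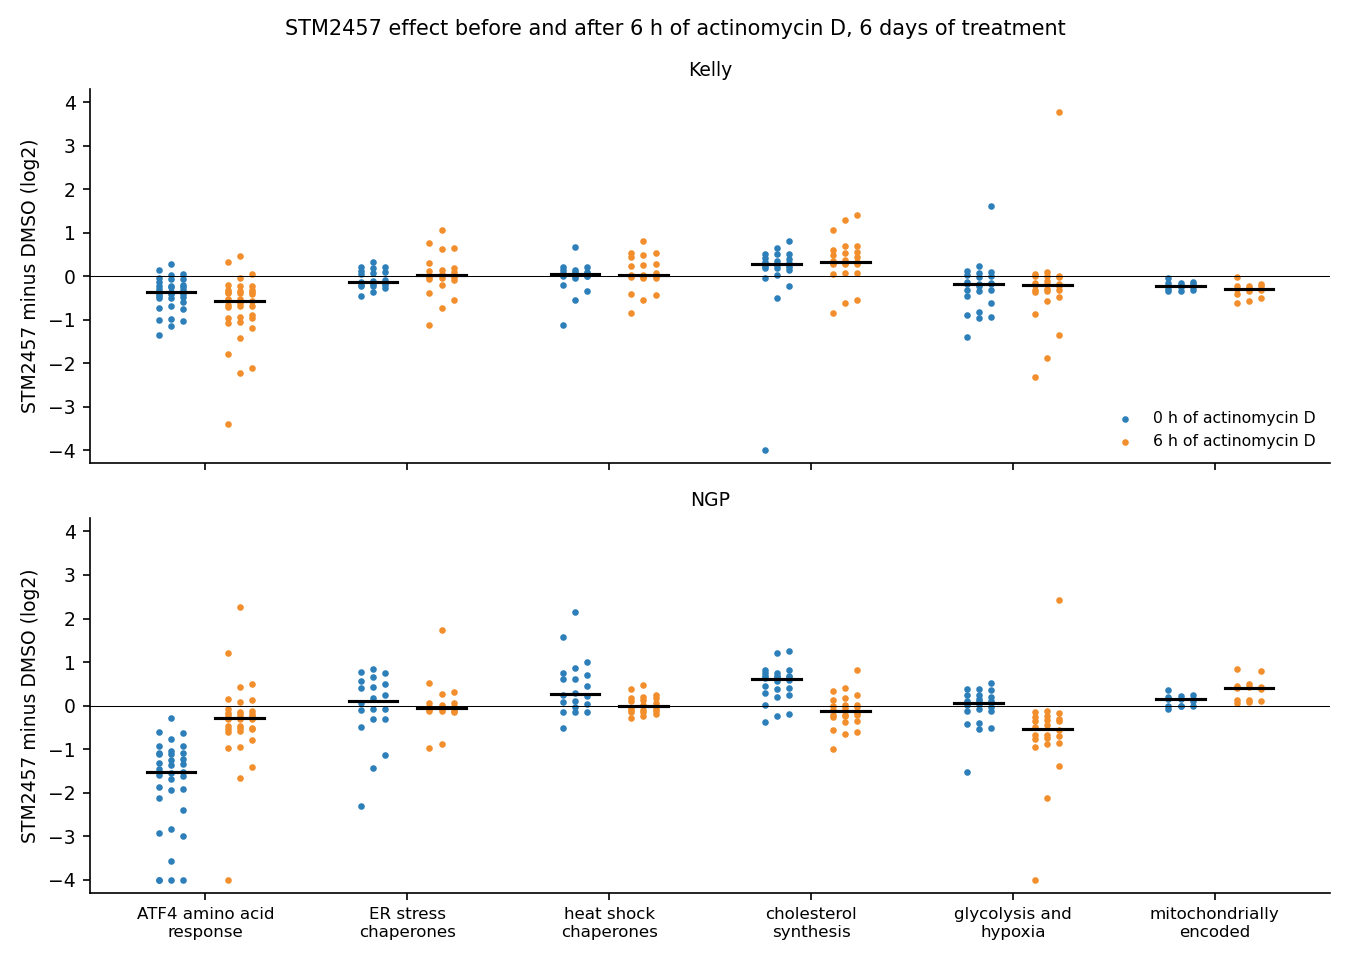
STM2457 minus DMSO (log2) at 0 h (blue) and 6 h (orange) of actinomycin D for every tested member of 6 gene lists, Kelly above and NGP below; each point is 1 gene, black bars are list medians, and 7 values beyond 4 log2 units are drawn at the edge. For the amino acid response the NGP median is -1.52 at 0 h and -0.29 at 6 h, and for glycolysis and hypoxia 0.06 and -0.53; both times share their libraries with the decay difference.

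Of the histone genes, H2AC11, H1-3 and H4C5 were called in both lines with opposite signs. As a list chosen after their values were seen, 64 of 70 genes for core and H1 histones were tested, 47 had at least 5 CPM in all 4 groups at 0 h, and 12 had a higher line difference (0.565% of all genes) and 0 a lower one (0.438%). Loss was faster under STM2457 in Kelly for 9 (0.271% of all genes) and slower in NGP for 11 (0.825%), and the medians were -0.56 in Kelly and 0.65 in NGP. Of the 12, H1-10, H2AC13, H2BC12 and H3C12 were called as slower in NGP only, and the H2AC13 call was lost in 1 of 16 refits. The higher count was 21 with no filter on low counts and 7 with limma-voom. Many histone genes have near-identical copies, so counts can be split between them.

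H2AC11 (chr6:27133042-27135291), a histone H2A gene, was called in both lines with opposite signs. In Kelly it held 162 and 163 CPM at 0 h and 17.3 and 18.8 at 6 h in DMSO, and 255 and 241 and then 9.20 and 10.7 CPM in STM2457. In NGP it held 294 and 345 and then 3.48 and 9.13 CPM in DMSO, and 198 and 252 and then 12.1 and 10.5 CPM in STM2457. STM2457 was higher at 0 h and lower at 6 h in Kelly, and lower at 0 h and higher at 6 h in NGP, with no overlap at any of the 4 points. Its decay difference was -1.47 ± 0.29 in Kelly (adjusted p = 0.00186) and 1.42 ± 0.31 in NGP (adjusted p = 0.00273), and the line difference 2.89 ± 0.42 (adjusted p = 2.73e-06).

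H1-3 (chr6:26234268-26234933), a linker histone, held 76.8 and 68.8 and then 2.40 and 2.41 CPM in Kelly DMSO, 95.9 and 97.7 and then 0.853 and 0.392 in Kelly STM2457, 243 and 256 and then 2.37 and 5.89 in NGP DMSO, and 127 and 125 and then 5.10 and 5.23 in NGP STM2457. For H1-3 the line difference was 3.69 ± 0.64 (adjusted p = 9.89e-05), resting on few fragments at 6 h. H4C5 (chr6:26204552-26206038), a histone H4 gene, was at -0.89 ± 0.21 in Kelly, 0.78 ± 0.20 in NGP and 1.67 ± 0.29 for the line difference (adjusted p = 0.000108). H2AC20 (chr1:149886975-149887364) was called in Kelly only: it held 210 and 174 and then 35.0 and 40.2 CPM in Kelly DMSO, and 319 and 299 and then 17.4 and 15.3 CPM in Kelly STM2457. In NGP H2AC20 held 360 and 353 and then 23.5 and 24.4 CPM in DMSO, and 277 and 268 and then 28.2 and 27.1 CPM in STM2457. The line difference of H2AC20 was 2.48 ± 0.32 (adjusted p = 1.27e-07), with -1.88 ± 0.23 in Kelly and 0.60 ± 0.22 in NGP (adjusted p = 0.242).

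Histone genes also called in Kelly only were H1-4 (chr6:26156354-26157107), H3C11 (chr6:27871905-27872315), H1-5 (chr6:27866849-27867529) and, outside the list, H2AW (chr1:228456979-228457873), at line differences of 2.00 ± 0.31, 1.68 ± 0.32, 1.94 ± 0.37 and 2.09 ± 0.42, together with H2AC4 at 2.06 ± 0.49 (lost in 4 of 16 refits). In NGP the decay differences of H1-4, H3C11, H1-5 and H2AW were 0.64 ± 0.22, 0.70 ± 0.23, 0.83 ± 0.27 and 0.50 ± 0.29. None of these passed, and each was opposite in sign to the Kelly value. The call of H1-5 was lost without NGP STM2457 6 h replicate 1 (1.45). H1-4 shows how low these genes fell: from 474 and 442 to 17.5 and 21.7 CPM in Kelly DMSO and from 1210 and 1320 to 21.1 and 23.8 CPM in NGP DMSO. Histone messages are made in S phase and are lost quickly when DNA synthesis stops; of 30 listed G1 and S phase genes 18 were higher in STM2457 at 0 h in Kelly (2.36% of all genes were) and 8 higher and 2 lower in NGP (2.87% and 2.24%). The G2 and mitosis list went the other way between the lines, with 22 of 28 higher at 0 h in NGP and 9 in Kelly. Its median effects at 0 h were 0.63 and 0.29. The part of the cell cycle in the histone values was not tested.

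**Figure D5:**
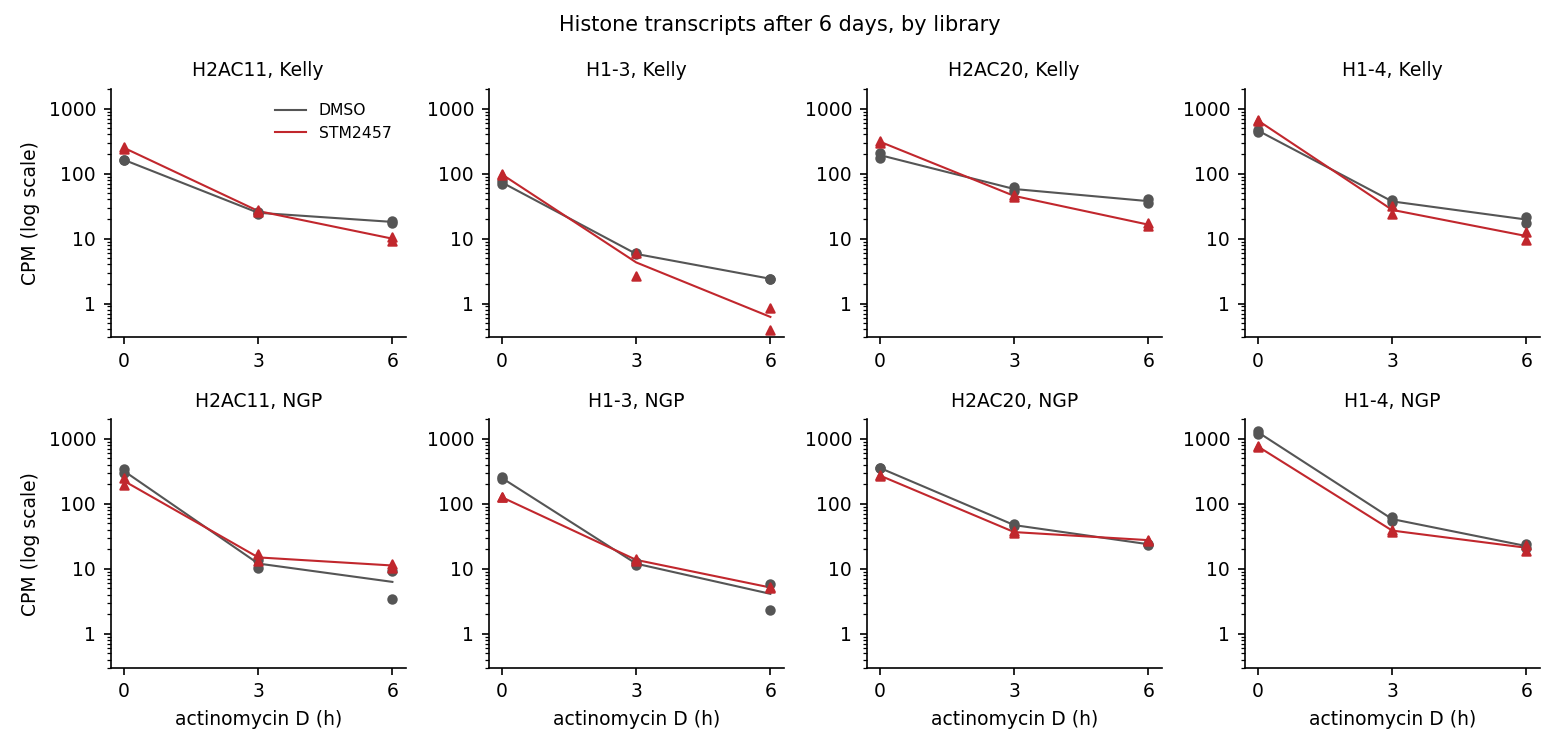
CPM (log scale) of H2AC11, H1-3, H2AC20 and H1-4 by hours of actinomycin D after 6 days of DMSO (grey circles) or STM2457 (red triangles), Kelly above and NGP below; each point is 1 library and lines join the means of 2. In Kelly the STM2457 points of H2AC11 are above DMSO at 0 h (255 and 241 against 162 and 163 CPM) and below it at 6 h.

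Genes slower under STM2457 in Kelly only were fewer, and 8 of the 18 had at least 5 CPM in all 4 groups at 0 h. NEFH (chr22:29480218-29491390), the heavy neurofilament subunit, held 486 and 465 and then 575 and 601 CPM in Kelly DMSO, and 533 and 563 and then 1039 and 854 CPM in Kelly STM2457. In NGP it held 425 and 401 and then 542 and 605 CPM in DMSO, and 501 and 475 and then 576 and 524 CPM in STM2457. The Kelly treatments were apart at both times and widest at 6 h, and the NGP treatments overlapped at 6 h. Its line difference was -0.78 ± 0.13 (adjusted p = 4.61e-05), with 0.48 ± 0.09 in Kelly (adjusted p = 0.00143) and -0.30 ± 0.09 in NGP (adjusted p = 0.0819).

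FAM49A (chr2:16549459-16666331), whose product binds the GTPase RAC1, held 77.5 and 71.9 and then 120 and 146 CPM in Kelly DMSO, and 41.9 and 57.0 and then 173 and 181 CPM in Kelly STM2457. The order of its treatments in Kelly was reversed between 0 and 6 h, and its line difference was -1.29 ± 0.23 (adjusted p = 0.000206). RPL36AL (chr14:49618530-49620626), a ribosomal protein gene with related copies, held 108 and 95.7 and then 55.6 and 65.1 CPM in Kelly DMSO, and 115 and 118 and then 156 and 123 CPM in Kelly STM2457. RPL36AL fell in Kelly DMSO and did not in the other 3 conditions, and its line difference was -1.18 ± 0.22 (adjusted p = 0.000582). CHD3 (chr17:7884796-7912760), a chromatin remodeller, was at -0.62 ± 0.15 (adjusted p = 0.0124) and DDX23 (chr12:48829756-48852842), a spliceosomal helicase, at -0.86 ± 0.21 (adjusted p = 0.0174). The CHD3 call was lost without Kelly DMSO 0 h replicate 2 (-0.56), Kelly STM2457 0 h replicate 1 (-0.55), Kelly STM2457 6 h replicate 1 (-0.44) or NGP DMSO 0 h replicate 1 (-0.55), and the DDX23 call in 5 of 16 refits, at -0.82 to -0.67. HNRNPM, a splicing regulator, was called at -0.45 ± 0.12 in this class and lost the call in 12 of 16 refits.

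Mitochondrially encoded transcripts, made by a polymerase of their own, had a higher line difference for 4 of 13 (MT-ND1, MT-ND2, MT-ND3 and MT-CYB; 0.565% of all genes) and a lower one for 0 (0.438%), with a median of 0.34. MT-CO1 was at -0.23 ± 0.10 and did not pass, and the MT-CYB call was lost in 8 of 16 refits. MT-ND1 (chrM:3307-4262), a subunit of complex I, held 3755 and 4032 and then 619 and 633 CPM in Kelly DMSO, and 3346 and 3228 and then 406 and 414 CPM in Kelly STM2457. In NGP it held 4625 and 4099 and then 2110 and 1997 CPM in DMSO, and 4129 and 4482 and then 2690 and 2853 CPM in STM2457. At 6 h STM2457 was below DMSO in Kelly and above it in NGP without overlap. Its line difference was 0.82 ± 0.13 (adjusted p = 3.37e-05), with -0.37 ± 0.09 in Kelly and 0.45 ± 0.09 in NGP. MT-ND2 (chrM:4470-5511) and MT-ND3 (chrM:10059-10404) were at 0.81 ± 0.16 and 0.90 ± 0.20, called in NGP only. With ERCC scaling 1 gene of the list was called, with limma-voom 2, and without Kelly STM2457 6 h replicate 2, 7.

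Among lineage genes, PHOX2A (chr11:72239077-72245664), a noradrenergic transcription factor, was faster in NGP only, from 120 and 133 to 31.0 and 31.8 CPM in DMSO and from 173 and 169 to 21.8 and 15.8 CPM in STM2457. The line difference of PHOX2A was -1.29 ± 0.29 (adjusted p = 0.00617), lost without Kelly STM2457 6 h replicate 1 (-0.98) or NGP STM2457 6 h replicate 2 (-1.09). MYCN (chr2:15940550-15947007) was faster under STM2457 in Kelly (-0.43 ± 0.09, adjusted p = 0.00767) and at 0.03 ± 0.09 in NGP, and its line difference of 0.46 ± 0.13 did not pass (adjusted p = 0.0695).

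Smaller or less stable calls among listed genes were JUN (2.48 ± 0.66, lost in 11 of 16 refits), RFC4 (1.39 ± 0.33, lost in 5), MAP2 (0.54 ± 0.14, lost in 12), INA (-0.61 ± 0.15, lost in 9), NPM1 (-0.31 ± 0.08, lost in 15), PLXNA1 (0.68 ± 0.16, lost in 2) and ACTB (-0.35 ± 0.08, lost in 1). JUN is an immediate early transcription factor, RFC4 a clamp loader of DNA replication, MAP2 and INA neuronal cytoskeleton genes, NPM1 a nucleolar chaperone, PLXNA1 a semaphorin receptor and ACTB beta-actin. The PLXNA1 call went without NGP DMSO 0 h replicate 2 (0.57) or NGP STM2457 6 h replicate 1 (0.47), and the ACTB call without NGP DMSO 0 h replicate 1 (-0.25). RPS27A (chr2:55231903-55235853), a ubiquitin fusion with a ribosomal protein, was faster in Kelly only, at a line difference of 0.60 ± 0.13 (adjusted p = 0.00431). It was the 1 called gene of 78 tested cytosolic ribosomal protein genes, whose median of 0.18 turned to -0.09 with ERCC scaling. With each line tested alone, 10 of the 78 were faster in Kelly (0.271% of all genes) and 1 in NGP (0.773%).

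Of the machinery of the m6A mark and of decay itself, 0 of 8 m6A writers, 0 of 12 readers and erasers and 0 of 53 genes of mRNA decay had a called line difference, with medians of 0.10, -0.17 and 0.12. Lists with 0 calls were also the catecholamine genes (15 tested, median 0.12), G2 and mitosis genes (28, -0.29), p53 targets (24, 0.26), nuclear oxidative phosphorylation genes (38, -0.09) and interferon response genes (27 of 28, 0.30). With 1.00% of all genes called, lists this short could hold 0 calls at that share, so these counts say nothing particular of them. Calls were made among short-lived transcripts (1 higher of 34 tested, median 0.06), neuronal genes (1 higher and 2 lower of 25, -0.06), adrenergic transcription factors (1 and 1 of 15, -0.07), G1 and S phase genes (1 higher of 30, -0.08), ribosome assembly (1 lower of 29, 0.07), splicing factors (1 lower of 32, -0.13) and axon guidance (2 higher and 1 lower of 39, 0.14). Long-lived transcripts had 6 of 23 lower (0.438% of all genes were), with a median of -0.22. Among the 6, ENO1, TPI1 and PKM are also in the glycolysis and hypoxia list and were counted there. Scaling to the ERCC spike-ins moved the median over all genes from -0.05 to -0.32, and the positive list medians of m6A writers, mRNA decay, catecholamine genes, short-lived transcripts, ribosome assembly, p53 targets and axon guidance turned negative. Leaving out 1 library turned the sign of the median in 6 of 16 refits for m6A writers and for neuronal genes, 5 for ribosome assembly and for interferon response genes, 4 for short-lived transcripts and 3 for catecholamine genes.

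The same contrast at 3 days uses 16 other libraries. There, 1 of 17343 genes (0.00577%) had a called line difference, RYR2 at -3.36 ± 0.63, and 1004 genes had an unadjusted p under 0.05 against 1489 at 6 days. Of the 174 genes called at 6 days, 0 were called at 3 days and 71 had the same sign, while 8813 of all 17343 genes had the same sign at both durations. Of the 30 that had an unadjusted p under 0.05 at 3 days, 6 had the same sign, against 482 of 1004 over all genes. HSPA5 was at 0.75 ± 0.15 at 3 days (adjusted p = 0.0509), against -1.16 at 6 days. The difference between the durations was itself called for 72 genes (0.415%). Of these, 62 are among the 174, including HSPA8, HSP90AA1, ENO1, H2AC20, GARS1 and ATF4. That difference contains the 6-day libraries by which the 174 were chosen, so the overlap is no separate support. A contrast over 0 to 3 h at 6 days, which shares its 0 h libraries, called 1 gene.

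In sequence and size, the classes were described beside all genes with no test. Exon length had a median of 4631 bases in genes slower in NGP only, 5227 in those faster in NGP only, 6008 and 3130 in those slower and faster in Kelly only, 2250 in the opposite class and 4803 over all genes tested. The opposite class, with 3 histone genes and MT-ND1, had a median of 1 merged exon against 10 over all genes. GGACT, a frequent m6A sequence context, occurred at a median of 0.874 and 0.938 per kb of transcript in genes slower and faster in NGP only, 0.961 and 0.564 in those slower and faster in Kelly only, 0.607 in the opposite class and 0.933 over all genes. ATTTA, the core of AU-rich elements, had medians of 0.864, 0.795, 0.473 and 0.488 per kb in the same 4 classes against 1.00 over all genes. The mean level at 0 h was above that of all genes (15.03 CPM) in each class, at 166, 252, 51.2 and 140 CPM in the same order, and higher counts make a difference of given size easier to call.

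Each value rests on groups of 2 libraries whose spread was pooled over the 24 groups of the study. The call of the line difference was kept in all 16 refits for 77 of the 174 genes, and for 37 of the 50 genes named by rule.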

How the data were processed

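Poly(A) RNA was sequenced in 48 libraries, 2 for each of 24 groups, of which 16 enter the contrast. The authors deposited read counts per gene, made per the file headers with featureCounts 1.5.3 of Subread on paired fragments in exons, summed by gene name over protein-coding genes of GENCODE 33 and the ERCC spike-ins. The headers give no option for strand or for multiply mapped reads. The submitters' processing notes name FastQC 0.11.5, Trimmomatic 0.36, HISAT2 2.1.0 and the build GRCh38.

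From these counts, edgeR 4.0.16 (R 4.3.3) fitted a quasi-likelihood model over all 48 libraries with 1 mean per group and TMM scaling, after filterByExpr with a minimum count of 10 and a minimum total of 15 kept 17343 of 19923 genes. Contrasts were tested with Benjamini-Hochberg adjustment and called under 0.05, and SE is the absolute log2 value divided by the square root of F. TMM scaling makes each value relative to the typical gene, so a loss shared by all genes is not seen; the ERCC scaling gives the alternative. With 24 residual degrees of freedom the spread is pooled over groups of 2. The fit was also run on counts simulated from its own means and spread, with known changes added. Such counts cannot show whether the replicates were separate cultures. At 11139550 to 21942238 fragments a library, groups near 0 counts give imprecise values.

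The members and the 23 gene lists were chosen with earlier results of these data known. Genes named by rule were called, had at least 5 CPM at 0 h in all 4 groups, and were up to 8 of the opposite class by the smaller absolute decay difference, 5 of each other 1-line class and 2 called in neither line by smallest p, with up to 3 called members of each list, METTL3 and MYCN. Other list members given with values were chosen after their values were seen. The histone list and the contrast of 6 with 3 days were added after seeing the data. Alternatives were DESeq2 1.42.0, limma-voom (limma 3.58.1), other scalings and filters, fewer libraries, a length trend, a replicate block and leaving out each library. Promoters were read from RefSeq and transcripts from GENCODE 44. MYC, GADD45B, NUPR1, CRYAB and CXCL10 were too low to test, and VEGFA, RPL40 and LDHB were not analysed here. Some genes chosen by the rule are not reported here.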

Additional observations from a re-analysis of the deposited data

Results flagged for a closer look

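Each of the following genes was picked out because the decay difference differed between the lines by the test of that difference in edgeR. The values are the line difference, NGP minus Kelly, on the log2 scale.

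Where the decay difference was called in both lines with opposite signs, it was 3.69 for H1-3, 2.89 for H2AC11, 1.67 for H4C5, 1.40 for ATF4, -1.16 for HSPA5, -0.89 for PDIA4 and 0.82 for MT-ND1.

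Among genes slower under STM2457 in NGP only it was 2.48 for JUN, 1.84 for SLC7A5, 1.56 for ASNS, 1.55 for ARHGEF2, 1.39 for RFC4, 1.32 for GARS1, 1.19 for UNC5B, 1.11 for EIF1, 0.90 for MT-ND3, 0.81 for MT-ND2 and 0.54 for MAP2. Among genes faster in NGP only it was -2.02 for HSPA1B, -1.29 for RGS4, -1.29 for PHOX2A, -1.12 for HSPA8, -1.06 for LDHA, -1.01 for HMGCS1, -0.86 for SLIT3, -0.85 for CALR, -0.82 for FDFT1, -0.81 for HSP90AA1, -0.72 for HSP90B1, -0.65 for TPI1, -0.64 for ENO1, -0.35 for ACTB and -0.31 for NPM1.

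Among genes slower in Kelly only it was -1.29 for FAM49A, -1.18 for RPL36AL, -0.86 for DDX23, -0.78 for NEFH, -0.62 for CHD3 and -0.45 for HNRNPM, and among genes faster in Kelly only 2.48 for H2AC20, 2.09 for H2AW, 2.00 for H1-4, 1.94 for H1-5, 1.68 for H3C11 and 0.60 for RPS27A. Where neither line alone was called it was 1.46 for ALDH1L2, 0.68 for PLXNA1 and -0.61 for INA.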

How the results depend on the processing

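The 174 line differences (98 higher, 76 lower) became 126 to 213 (73 to 113 higher, 51 to 100 lower) when 1 library was left out. Over the same refits the Kelly decay difference was called for 37 to 125 genes, that in NGP for 188 to 320, and the classes held 18 to 50 (Kelly only), 80 to 126 (NGP only) and 2 to 9 (opposite). With the 16 libraries alone the counts were 52 in Kelly, 47 lower and 21 Kelly only. DESeq2 gave 216 in Kelly, 433 in NGP, 141 lower, 51 Kelly only and 13 opposite, with 45.98% of calls higher against 56.32% in edgeR. Removing a length trend gave 48 lower and 4 opposite, with 70.91% higher. limma-voom gave 110 calls (64 higher, 46 lower), 17 Kelly only, 72 NGP only and 3 opposite. With no filter there were 265 calls, 124 lower, 164 in Kelly, 57 Kelly only and 16 opposite. ERCC scaling gave 424 calls (62 higher, 362 lower; 14.62% higher), 4955 in Kelly, 2013 in NGP, 283 Kelly only, 51 NGP only and 20 opposite, with the median of all genes at -0.32. Scaling to long-lived transcripts gave 43 lower and 75.84% higher. The cause of these changes was not tested. With the replicate number as a block 193 genes were called, 171 of them among the 174. Differences between replicates 1 and 2 correlated between groups of a line at -0.01 to 0.03. No pairing by number was thus seen across genes, and a pairing limited to few genes would not show. Of the 50 named calls 30 held in every refit and alternative and 0 reversed; of the 174, 1 reversed (FOXD1), and 19 of 23 list medians moved. Genes near 0 counts in a group are limited by depth.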

Other observations

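Genes in none of the lists made up 109 of the 174 calls, and those named here were chosen after their values were seen. Several act beside the amino acid response. NARS1 and LARS1, the tRNA synthetases for asparagine and leucine, had line differences of 0.72 ± 0.18 and 0.48 ± 0.12, and XPOT, which exports transfer RNA from the nucleus, was at 0.84 ± 0.16. ASS1 of arginine synthesis was at 1.04 ± 0.17, GOT1 of aspartate metabolism at 1.73 ± 0.38 and BCAT1 of branched-chain amino acid breakdown at 0.59 ± 0.11. EIF2S2, a subunit of the initiation factor eIF2, was at 1.18 ± 0.22. All of these were positive, and LARS1 alone among them was called in neither line. They were picked after their values were seen, so the shared sign is no result about such genes. SARS2, also a tRNA synthetase gene in none of the lists, was called as faster in NGP only. It had under 5 CPM in at least 1 group at 0 h. The call was lost in 6 of 16 refits that each left out 1 library for NARS1, in 9 for LARS1 and in 1 for GOT1.

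Growth and signalling genes went both ways. IGF2, a growth factor, was called in Kelly only, at -0.83 there and -0.28 in NGP. DLK1, a Notch ligand family member of chromaffin cells, was called in NGP only, at -0.75 there and -0.23 in Kelly. RGS5, a relative of RGS4, was at -0.65 ± 0.11 and EPAS1, the hypoxia factor HIF-2 alpha, at -1.37 ± 0.32. DDR2, a collagen receptor, was at 0.97 ± 0.14, made of 1.06 in NGP and 0.08 in Kelly. The call was lost in 7 of 16 refits for IGF2, 3 for EPAS1 and 1 for DLK1.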
